A study of Homo sapiens with 6 samples.

Results

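GXYLT1 and 8 other genes for enzymes that place O-linked sugars on small extracellular protein repeats, above all those of Notch receptors, were followed in AGO2 immunoprecipitates. AGO2 is an Argonaute protein, the partner that carries a microRNA to the transcripts it pairs with. The genes were GXYLT1, GXYLT2, XXYLT1, POGLUT1, POFUT1, POFUT2, LFNG, MFNG and RFNG. They are 9 of the 18417 genes that could be named on the array from a probe set with 1 gene symbol, and each was read by 1 probe set. GXYLT1 was chosen by its log2 difference between the groups, one of the largest on the array, and the set was built around it. That difference is therefore described here without a test. The other 8 genes were added for what their enzymes do, but with earlier results of these data known, so their choice was not blind to the data.

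The cells were PC3, an established line from an androgen-independent, aggressive prostate cancer. One group received ectopic miR-205 (3 arrays) and the other a negative control mimic (3 arrays), and every array of both groups is an AGO2 immunoprecipitate. The submitters describe the 3 samples of each group as biological replicates, and both groups share the single cell line. The series set out to find transcripts targeted by miR-205. The arrays hold no matching input RNA here, so a change in the share of a transcript bound to AGO2 and a change in the amount of that transcript cannot be told apart, nor can fewer cells and less RNA per cell.

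Notch receptors carry many epidermal growth factor (EGF)-like repeats, small disulphide-bonded modules that bind the ligands on neighbouring cells. In the endoplasmic reticulum POGLUT1 adds O-glucose and POFUT1 adds O-fucose to such repeats. Xylose is then placed on the glucose by GXYLT1 or GXYLT2, XXYLT1 adds a further xylose, and the Fringe enzymes LFNG, MFNG and RFNG extend the fucose with N-acetylglucosamine, which alters how a receptor answers its Delta-type and Jagged-type ligands. POFUT2 adds O-fucose to a different module, the thrombospondin type 1 repeat of secreted matrix proteins. MicroRNAs guide AGO2 mainly by pairing of their seed, bases 2 to 8, with transcripts.

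The mature arms of human miR-205 are shown because the guide was the only planned difference between the groups. The labels name miR-205 without an arm. The sequences are from RefSeq (GRCh38.p14), written 5′ to 3′ with the seed in capitals, and both arms lie on the plus strand of chromosome 1, the 5p arm at chr1:209432166-209432187 and the 3p arm at chr1:209432203-209432223.
hsa-miR-205-5p: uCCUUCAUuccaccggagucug
hsa-miR-205-3p: gAUUUCAGuggagugaaguuc
Of the 2370 mature human miRNA names in the RefSeq table, 0 others share the seed of the 5p arm. Transcript sequences were not used here, so no seed match in any of the 9 genes is given.

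Values below are RMA log2 intensities, in which a difference of 1 is a doubling of signal, and levels of different genes are not set against each other because each is read by its own probes. Array medians lay between 6.82 and 6.86. A gene is called dim here when its mean over the 6 arrays does not exceed 6.04, the level that 95% of 341 olfactory receptor genes stay under. Over all genes, the SD of the difference between 2 arrays was 0.275 to 0.339 across groups, at most 0.146 within the miR-205 group and at most 0.218 within the control group. Negative control replicate 2 stood apart from the other 5 arrays on the second principal component, which held 13.1% of the variance. On the first, which separated the groups and held 69.5%, it stood at -11.2. The other controls stood there at -22.2 and -23.8, and the miR-205 arrays at 18.3 to 19.6. Negative control replicate 2 was thus the control nearest the miR-205 arrays, and results are also given without it. The line's keratins KRT8, KRT18 and KRT19 and vimentin (VIM) were bright, averaging 11.2 to 12.7 in both groups. Of these 4 markers KRT8 (0.89, limma adjusted p = 6.39e-05) and KRT18 (0.55, 0.000274) rose and VIM fell by 0.26 (0.00968), and their part in the results was not tested. The prostate antigen gene KLK3 stood at 6.06 ± 0.05 with miR-205 and 6.08 ± 0.10 in controls (SD, n = 3 each), close to the dim level. Of 3 leukocyte markers 1 was above the dim level (CD14, 6.25 with miR-205 and 6.42 in controls) and PTPRC stood at 3.61 in both groups. Of 3 liver markers 1 was above it (APOA1, 7.37 with miR-205 and 7.32 in controls) and ALB stood at 4.02 with miR-205 and 3.93 in controls. Of 5 fibroblast markers 3 were above it, with COL1A1 at 9.05 with miR-205 and 8.94 in controls. The only one of these 11 markers to pass between the groups was the dim fibroblast gene LUM, at 3.40 with miR-205 and 3.03 in controls (limma adjusted p = 0.0459), and its part in the results was not tested.

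GXYLT1, which starts the xylose branch, was low in every miR-205 array. Its probe set (7962349; gene at chr12:42081845-42144874, GRCh38.p14) read 8.08, 8.0 and 7.90 in the miR-205 arrays, against 9.45, 9.67 and 9.57 in the control arrays. The groups did not overlap, and the lowest control array lay 1.37 above the highest miR-205 array. The means were 7.99 ± 0.09 with miR-205 and 9.56 ± 0.11 in controls (SD, n = 3 each), a log2 difference of -1.57, or 2.97-fold lower with miR-205. It was the 8th lowest difference of the 18417 genes, which is what brought the gene to attention. With any 1 array left out the difference stayed between -1.63 and -1.51, and it was -1.51 without negative control replicate 2, the highest of the control arrays for this gene. The RefSeq gene table lists 7 pseudogenes of GXYLT1, and whether their RNA adds to this probe set was not tested.

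GXYLT2 encodes the second enzyme able to add the first xylose, and its values leaned the other way. Its probe set (8080964, gene at chr3:72888046-72976915) read 8.47, 8.51 and 8.63 with miR-205, against 8.15, 8.40 and 8.39 in controls. The groups did not overlap, but the nearest arrays were only 0.065 apart. The log2 difference of 0.22 (95% interval 0.03 to 0.41, which is not adjusted for the number of genes) did not pass, with a limma adjusted p of 0.0854. With 1 array left out it ranged from 0.14, without negative control replicate 1 (limma adjusted p = 0.221), to 0.27, without negative control replicate 2 (0.051), and it passed in no case. The GXYLT2 values thus lie on the opposite side of 0 from those of GXYLT1, while a change of GXYLT2 was not established.

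XXYLT1 encodes the enzyme that adds the outer xylose, and it fell. Its probe set (8092922, gene at chr3:195068284-195271159) read 9.01, 9.04 and 9.06 with miR-205, against 9.46, 9.38 and 9.45 in controls. All miR-205 arrays lay below all control arrays, with a gap of 0.32 that is wider than the range within either group. The log2 difference was -0.39 ± 0.06 (SE, n = 3 per group, limma adjusted p = 0.00143), 1.31-fold lower with miR-205.

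POGLUT1 encodes the O-glucosyltransferase whose product the xylose enzymes extend. Its probe set (8081853, gene at chr3:119468963-119494708) read 8.11, 8.04 and 8.02 with miR-205, against 8.28, 8.46 and 8.30 in controls. The groups were separate, with negative control replicate 2 the highest. The log2 difference of -0.29 ± 0.07 (SE, n = 3 per group) passed, with a limma adjusted p of 0.0133. This call was close to the threshold, since leaving out miR-205 replicate 2 gave -0.28 (limma adjusted p = 0.0526) and leaving out miR-205 replicate 3 gave -0.28 (limma adjusted p = 0.0517).

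**Figure D1:**
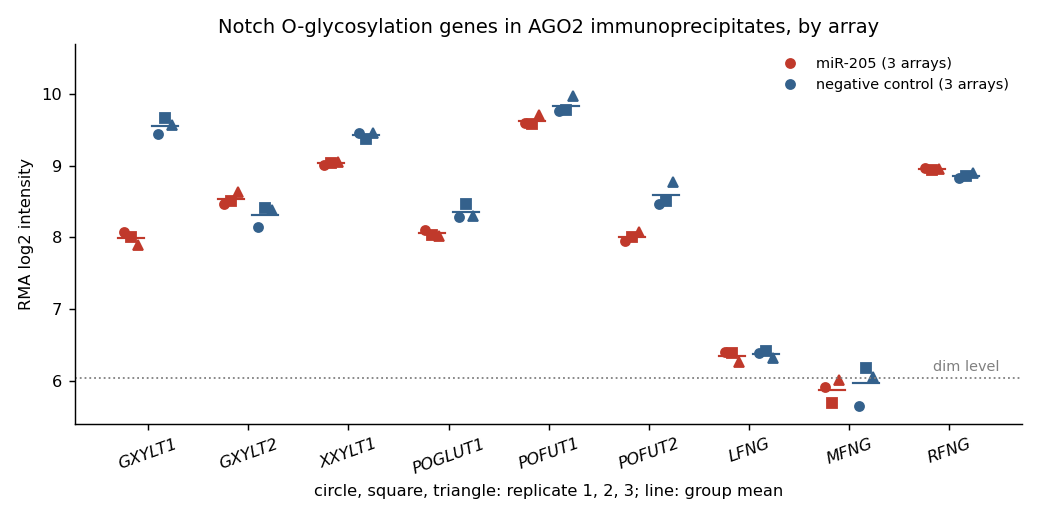
RMA log2 intensity of the 9 genes in each miR-205 array (red, left of each pair) and each negative control array (blue), with markers for replicates 1 to 3, a line at each group mean and a dotted line at the dim level of 6.04. GXYLT1 shows the widest separation. XXYLT1, POGLUT1, POFUT1 and POFUT2 also lie lower in all 3 miR-205 arrays, and GXYLT2 and RFNG lie higher in all 3. MFNG lies around the dim level in both groups.

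On the O-fucose side, POFUT2 fell and POFUT1 did not pass. The POFUT2 probe set (8070876, gene at chr21:45263935-45287895) read 7.96, 8.002 and 8.07 with miR-205, against 8.47, 8.52 and 8.77 in controls. Every control array was at least 0.395 above every miR-205 array, with negative control replicate 3 the highest. The log2 difference was -0.57 ± 0.09 (SE, n = 3 per group, limma adjusted p = 0.00174), 1.49-fold lower with miR-205 and the largest among the 8 genes tested. It ranged from -0.63 to -0.48 with 1 array left out and passed each time, at a limma adjusted p of at most 0.00978.

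POFUT1, whose product Fringe extends, read 9.60, 9.58 and 9.71 with miR-205 on its probe set (8061706, gene at chr20:32207880-32238658), against 9.76, 9.78 and 9.98 in controls. The groups did not overlap, by a margin of 0.047. The log2 difference of -0.21 (95% interval -0.38 to -0.03, not adjusted for the number of genes) had a limma adjusted p of 0.0788. It passed under 2 other settings, a robust variance with a trend (limma adjusted p = 0.0447) and array weights (0.0475), so the call depends on how the variance is estimated. With 1 array left out it passed in no case (limma adjusted p = 0.0639 to 0.219), and it was -0.14 without negative control replicate 3.

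None of the 3 Fringe genes passed. RFNG (probe set 8019367, gene at chr17:82047902-82051811) read 8.97, 8.94 and 8.96 with miR-205, against 8.82, 8.86 and 8.90 in controls. Its arrays were separate by 0.038, and the log2 difference of 0.09 (95% interval -0.03 to 0.22) had a limma adjusted p of 0.268. LFNG (probe set 8131143, gene at chr7:2512529-2529177) read 6.40, 6.39 and 6.26 with miR-205, against 6.39, 6.42 and 6.32 in controls. These values overlap and lie little above the dim level, with a log2 difference of -0.03 (95% interval -0.18 to 0.12, limma adjusted p = 0.787). MFNG (probe set 8075924, gene at chr22:37469063-37486384) read 5.92, 5.68 and 6.01 with miR-205, against 5.65, 6.18 and 6.06 in controls. It was the dim gene of the set and the most variable, with a log2 difference of -0.09 (95% interval -0.40 to 0.22, limma adjusted p = 0.684), so a moderate change of MFNG would not be detectable here.

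Over the 8 genes other than GXYLT1, 3 fell, 0 rose and 5 did not pass, at a limma adjusted p under 0.05 over all genes. By this rule 14.0% of all 18417 genes fell and 12.6% rose, 26.6% in either direction. Dim genes count in these shares. A fit of only the 13590 genes above the dim level called 2787 lower and 2482 higher (limma adjusted p under 0.05), a larger share each way. Of the 8 genes 7 were above that level, of which again 3 fell and 0 rose. At an unadjusted p under 0.05 the 8 genes counted 4 lower and 1 higher, against 19.9% of all genes lower and 17.9% higher. The 3 genes that fell were XXYLT1, POGLUT1 and POFUT2, of which POFUT2 encodes an enzyme of thrombospondin repeats. With 8 genes their count is read only against that background. The groups did not overlap for 6 of the 8, with miR-205 lower for 4 and higher for 2, against 42.2% of all genes without overlap (22.2% lower and 19.9% higher). The median log2 difference of the 8 genes was -0.15, against -0.02 over all genes. All of the 8 that were called are on the lower side, and their sizes of -0.57 to -0.29 were well short of the -1.57 of GXYLT1.

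**Figure D2:**
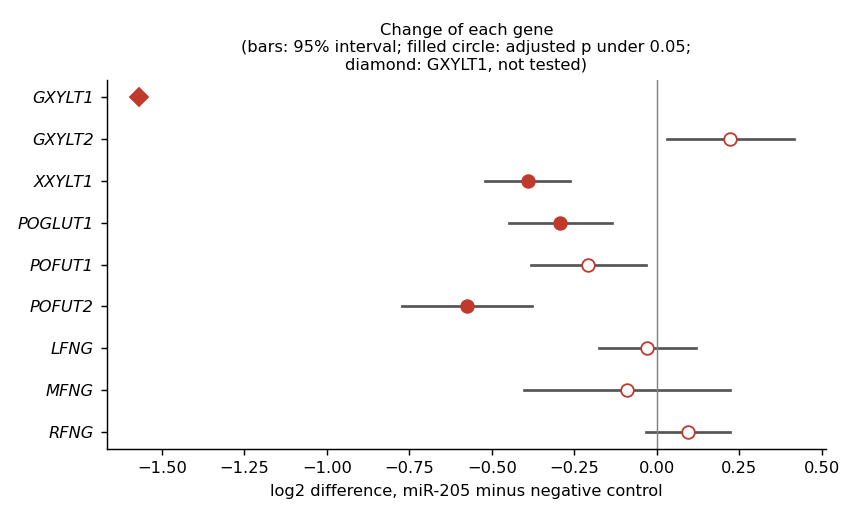
Log2 difference (miR-205 minus negative control, horizontal axis) of each gene, with 95% intervals for the 8 tested genes, filled circles for a limma adjusted p under 0.05 and a diamond without an interval for GXYLT1. XXYLT1 (-0.39), POGLUT1 (-0.29) and POFUT2 (-0.57) passed, while the intervals of LFNG, MFNG and RFNG include 0.

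Negative control replicate 2 did not move the 9 genes in one direction. Relative to the mean of the other 2 control arrays it was higher by 0.17 for GXYLT1, 0.17 for POGLUT1, 0.14 for GXYLT2 and 0.32 for MFNG. It was lower for POFUT2 (-0.11), POFUT1 (-0.09) and XXYLT1 (-0.07). Without it XXYLT1 (-0.42), POFUT2 (-0.61) and POGLUT1 (-0.24) still passed by limma, and 0 of the 8 genes rose.

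The remaining genes of the pathway were taken from lists of known function, drawn up with earlier results of these data known. Each count below stands against the 14.0% of all genes that fell and the 12.6% that rose. Nearly all list genes were above the dim level, where the share of genes called was larger. Besides OGT, 5 other enzymes act on EGF-like or thrombospondin repeats or their sugars, of which 1 fell and 1 rose. With OGT the list had 6 genes and a median log2 difference of -0.03, against -0.02 over all genes. POGLUT3, a further O-glucosyltransferase of EGF-like repeats, read 9.79, 9.83 and 9.77 with miR-205, against 10.4, 10.5 and 10.5 in controls. It fell by 0.67 with groups well apart (limma adjusted p = 9.76e-05). B4GALT1, a galactosyltransferase that can cap the N-acetylglucosamine laid down by Fringe, read 9.67, 9.67 and 9.66 with miR-205, against 8.60, 8.52 and 8.80 in controls. It rose by 1.03 (limma adjusted p = 6.39e-05), and no control array came near the miR-205 arrays. OGT, the O-linked N-acetylglucosamine transferase of the nucleus and cytosol, is not an enzyme of EGF-like repeats but stood in the list, and it fell by 0.38 (limma adjusted p = 0.00875).

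Relatives of GXYLT1 by enzyme family were compared next. GXYLT1, GXYLT2 and XXYLT1 belong to glycosyltransferase family 8. A list of 7 other genes drawn up for that family also held UGGT1 and UGGT2, which are usually classed outside it. Of the 7 genes 1 fell and 0 rose (1 higher at an unadjusted limma p under 0.05). The median was -0.01, against -0.02 over all genes. The gene that fell was UGGT1, the glucosyltransferase that checks glycoprotein folding in the endoplasmic reticulum, with -0.39 (10.61 ± 0.04 with miR-205 and 11.0 ± 0.13 in controls, SD, n = 3 each, limma adjusted p = 0.00623). Of 7 enzymes that start or process the xylose-based linker of proteoglycans, a separate use of xylose, likewise 1 fell and 0 rose, the median being -0.01. It was FAM20B, the kinase of the linker xylose (-0.20, limma adjusted p = 0.0322). That call was lost without any 1 of the 5 arrays other than negative control replicate 2, at limma adjusted p-values of 0.0524 to 0.123, and held at 0.0433 without that one.

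Of 10 measured genes that supply the sugar donors, 4 rose and 2 fell (median 0.04), against 12.6% of all genes that rose and 14.0% that fell. The genes that rose were SLC35C1 (0.35, limma adjusted p = 0.00383), which carries GDP-fucose into the Golgi, UGDH (0.31, 0.00451), which makes the precursor of UDP-xylose, SLC35B4 (0.37, 0.00585), a transporter of UDP-xylose, and GFUS (0.29, 0.0105), which completes GDP-fucose synthesis. The call of GFUS was lost without miR-205 replicate 2 (0.26, limma adjusted p = 0.0507). SLC35D1, a nucleotide sugar transporter (-0.29, limma adjusted p = 0.0177), and GMDS, the enzyme before GFUS in that synthesis (-0.27, 0.0112), fell; both were named after their values were seen. The 2 enzymes in succession on the GDP-fucose route thus differed in sign.

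The receptors that carry these sugars were followed next. Of 4 Notch receptor genes 3 fell and 0 rose (median -0.38), beside 14.0% of all genes that fell. NOTCH2 read 9.71, 9.80 and 9.67 with miR-205, against 11.0, 11.1 and 11.2 in controls. NOTCH2 is known as a reported miR-205 target and was seen to be low in these arrays before the list was drawn up. Its call and its part in the count and median of the 4 receptors therefore add no independent evidence. Whether its lower signal reflects targeting by miR-205 was not tested. Its log2 difference of -1.40 (limma adjusted p = 1.73e-05) is near that of GXYLT1, and in the platform annotation 1 further probe set is shared between NOTCH2 and its partial copies, whose RNA may add to either. NOTCH1 read 8.13, 8.13 and 8.19 with miR-205, against 8.55, 8.63 and 8.75 in controls, and fell by 0.50 (limma adjusted p = 0.00105). NOTCH3 fell by 0.27 (limma adjusted p = 0.017), a call lost without replicate 2 or 3 of miR-205 or replicate 1 or 3 of the controls (limma adjusted p = 0.0533 to 0.0683). NOTCH4 averaged 6.90 in both groups, with a log2 difference of 0.0025 (95% interval -0.19 to 0.20, limma adjusted p = 0.987).

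Of 7 Notch ligand genes, 0 passed by limma in either direction (1 lower and 0 higher at an unadjusted p under 0.05), with a median of -0.03. Of 11 genes for receptor cleavage and the nuclear complex, 5 fell and 1 rose (median -0.07), where 14.0% of all genes fell and 12.6% rose. ADAM10 (-0.41, limma adjusted p = 0.00174) and ADAM17 (-0.33, 0.00491) encode the proteases that shed the receptor's outer part, APH1B (-0.37, 0.00741) a gamma-secretase subunit, and MAML3 (-0.54, 0.00839) a coactivator of the nuclear complex; all 4 fell. FURIN (-0.23, limma adjusted p = 0.0313), a convertase that matures receptors, also fell, and the gamma-secretase subunit NCSTN rose by 0.27 (0.0195); both were named after their values were seen. Of 8 Notch target genes, 3 fell and 1 rose (median -0.04), beside the 26.6% of all genes called in either direction. HEY1, a transcriptional repressor, read 10.5, 10.4 and 10.4 with miR-205, against 11.2, 10.9 and 11.4 in controls, and fell by 0.69 (limma adjusted p = 0.00186). NRARP, a feedback inhibitor of Notch signalling, fell by 0.36 (limma adjusted p = 0.0101) and HEYL by 0.28 (0.0217), while HES1 rose by 0.31 (0.00903), so the target genes that passed did not share a direction. The HEYL call was lost without replicate 2 or 3 of miR-205 or replicate 1 or 3 of the controls (limma adjusted p = 0.0519 to 0.0814).

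**Figure D3:**
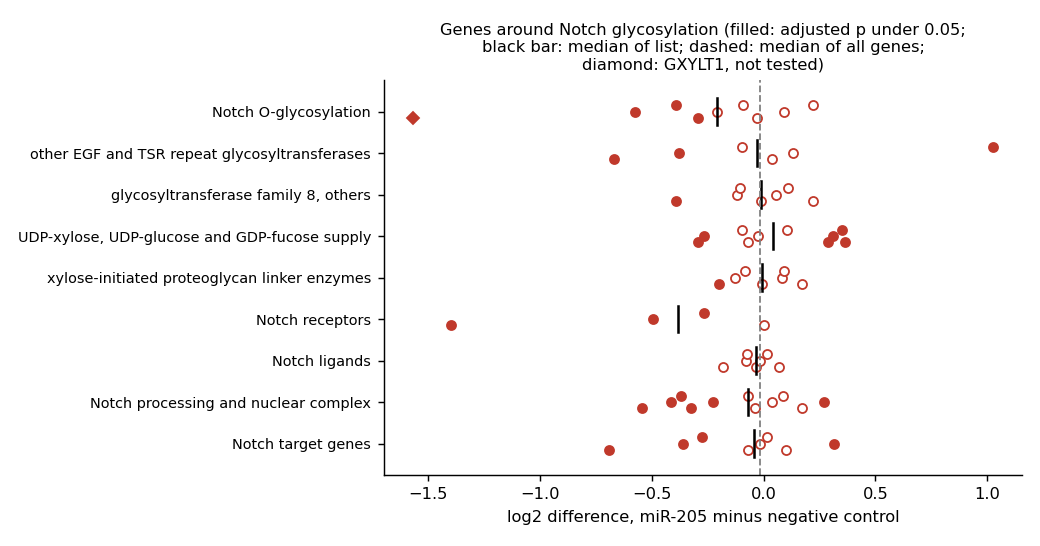
Log2 difference (miR-205 minus negative control, horizontal axis) of each gene in the 9 lists (vertical axis). Circles are filled where the limma adjusted p is under 0.05. A black bar marks each list's median and a dashed line the median of all genes (-0.02). The filled diamond is GXYLT1, which was not tested. The bar of its list (-0.21) includes GXYLT1, and the median of the other 8 genes was -0.15. NOTCH2 (-1.40) is the leftmost point after GXYLT1 (-1.57), and B4GALT1 (1.03) is the rightmost.

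Genes with a profile like that of GXYLT1 were sought among the 13589 other genes above the dim level. Each profile was centred on its own mean, and likeness was the root mean square difference of the log2 values over the 6 arrays. The nearest were BICC1, an RNA-binding protein (0.069), the collagen VI chain COL6A3 (0.077), JADE3, a scaffold of a histone acetyltransferase complex (0.085), TRAK2, a motor adaptor of mitochondria (0.088), and LBR, the lamin B receptor (0.092). Their log2 differences between groups were -1.63 for BICC1, -1.50 for COL6A3, -1.54 for JADE3, -1.49 for TRAK2 and -1.63 for LBR, and likeness over 6 arrays mainly reflects that size. Among the other genes of the set the closest was POFUT2, whose enzyme acts on thrombospondin repeats, at 0.515 and rank 495 of 13589. XXYLT1 followed at rank 1078 and POGLUT1 at rank 1649. GXYLT2 was at rank 11325.

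**Figure D4:**
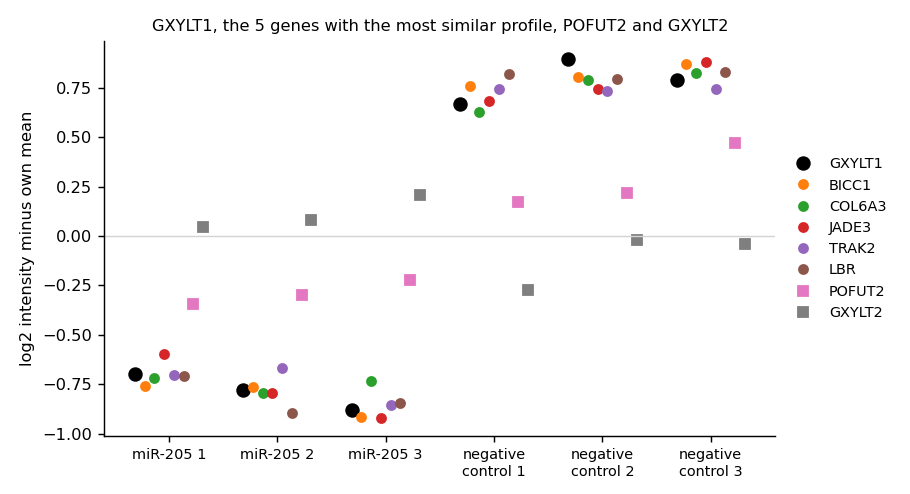
Log2 intensity minus each gene's own mean over the 6 arrays (vertical axis), with the 3 miR-205 arrays on the left and the 3 negative control arrays on the right, for GXYLT1 (black), its 5 nearest genes (circles) and POFUT2 and GXYLT2 (squares). The 5 nearest genes lie close to GXYLT1 in each array, POFUT2 shows a smaller step of the same sign (-0.57), and the GXYLT2 values lie on the other side (0.22).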

How the data were processed

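RNA from AGO2 immunoprecipitates of PC3 cells was labelled with biotin and read on Affymetrix gene arrays. Per the submitters' processing notes, the authors made the deposited log2 intensities by RMA in Affymetrix Expression Console 1.1.2; other settings are not given in the sources used here. No renormalization was done. Of 33297 probe sets, 19460 had 1 gene symbol in the platform annotation (1754 with several were not named), and each of 18417 genes was read from its brightest probe set by mean over all arrays. A limma 3.58.1 fit (R 4.3.3; lmFit, eBayes, no covariates) compared the groups two-sidedly, with p-values adjusted over all 18417 genes by Benjamini-Hochberg; the steps were tested on simulated data. The 3 arrays per group limit precision.

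The genes and lists were chosen with earlier results of these data known. Named are the 9 genes, all Notch receptors, up to 4 genes past the threshold per list by smallest p, and the 5 profiles nearest GXYLT1; other names are marked. Alternatives were 8 other settings and leaving out each array.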

Additional observations from a re-analysis of the deposited data

How the results depend on the processing

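Over 14 alternatives (8 settings and 6 arrays left out in turn), GXYLT1, XXYLT1 and POFUT2 kept their direction, and XXYLT1 and POFUT2 passed each time. Of the 8 genes other than GXYLT1, 2 to 4 fell (as reported: 3) and 0 rose. Over all genes, 1777 to 2881 fell with 1 array left out (as reported: 2586) and 1588 to 2668 rose (as reported: 2320). Signs turned only for values close to 0. NOTCH4 was -0.0024 with centring on the array median and -0.0103 with array weights, and without 1 array it ranged from -0.048 to 0.088. MFNG ranged from -0.24 to 0.017 without 1 array, and LFNG from -0.057 to 0.014. HEYL missed the threshold when all probe sets were tested (limma adjusted p = 0.0535) and without any 1 of 4 arrays (0.0519 to 0.0814), and GFUS without miR-205 replicate 2 (0.0507). Among the genes of the other lists, 12 to 17 fell with 1 array left out (as reported: 17) and 5 to 7 rose (as reported: 7). The causes were not tested.

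Deviations from the group means correlated at 0.063, 0.091 and 0.010 between arrays of equal replicate number, under the 0.1 set for treating the numbers as pairs. All 3 were above 0 and 5 of 6 arrays correlated best with their own number, so a weak pairing is undecided. With the replicate number as a block, 2204 genes rose and 2423 fell, of the 8 genes 3 fell, and FAM20B missed the threshold (limma adjusted p = 0.0587), as it did when all probe sets were tested (0.0599). MFNG has no value with dim genes left out.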
